A study of Mus musculus with 102 samples.

Results

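The protein part of the cytosolic ribosome is described here in sorted lumbar spinal microglia, through the mRNAs of its large (Rpl) and small (Rps) subunit proteins. Members were rows of the deposited normalized table whose mouse symbol has the form Rpl or Rps with a number (with the usual a, x, y, l and p endings), the stalk genes Rplp0, Rplp1 and Rplp2, and Rpsa, with symbols ending in -ps left out. This gave 88 of 18856 genes in that table, 53 of the large and 35 of the small subunit. The choice used names only and no measured value. GENCODE annotates 83 of the 88 as protein coding and 5 as processed pseudogenes (Rpl6l, Rpl32l, Rps3a2, Rps3a3 and Rps4l), and these 5 stay in every count below.

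RNA came from wild type mice (WT) and from ABC-imKO mice (KO), which carry Abca1fl/fl, Abcg1fl/fl and Cx3cr1-CreERT2, an inducible recombinase under Cx3cr1, a gene of microglia and other myeloid cells. How the recombinase was induced, and in which mice, is not described here. WT and KO mice were naive, with neither cisplatin nor an intrathecal injection, or had cisplatin into the peritoneum on days 1 and 3. The cisplatin mice then had intrathecal saline or intrathecal AIBP, the apolipoprotein A-I binding protein, on day 7. Naive and cisplatin saline groups therefore differ by the drug and by the intrathecal injection, which cannot be told apart. Each group held 3 numbered samples except WT cisplatin AIBP, which held 2 (7 and 9). Neither age nor the number of mice behind a numbered sample is in the labels used here, and p-values therefore speak only of the scatter among the samples at hand, which may be technical.

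A ribosome is built from ribosomal RNA and a fixed set of proteins, most of them needed in equal number, and the small subunit reads the mRNA while the large subunit joins the amino acids. Most of their mRNAs begin with a C and a run of pyrimidines, the 5′ terminal oligopyrimidine (TOP) motif, through which mTOR and LARP1 control their translation. Cells that grow, divide or become activated are known to make more ribosomes, and loss of single ribosomal proteins causes Diamond-Blackfan anaemia. Reads give the amount of mRNA, not of protein or of ribosomes.

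The start of a TOP mRNA is the feature that these genes are best known to share, so the 30 bases around the RefSeq gene start (10 before it and 20 from it on; build GRCm38.p6) are shown for members the results turn on. Capitals mark the pyrimidine tract, a C followed by at least 4 bases that are each C or T, searched on the gene's own strand. Rpl38, Rpl35a, Rps21, Rplp2 and Rps6 rose after cisplatin and have the tract exactly at an annotated start. Other annotated starts of Rpl35a and Rps21, not shown, have no tract within 10 bases. Rps27 has the tract exactly at its start and was not called, and Rpl22l1 has it within 10 bases of the start. Rpsa and Rpl27 rose with no such tract within 10 bases.
Rpl38, chr11:114668570-114668599, plus strand: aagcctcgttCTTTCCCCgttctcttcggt
Rpl35a, chr16:33056472-33056501, plus strand: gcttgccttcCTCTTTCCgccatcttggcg
Rps21, chr2:180257369-180257398, plus strand: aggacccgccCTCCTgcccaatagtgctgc
Rplp2, chr7:141447641-141447670, plus strand: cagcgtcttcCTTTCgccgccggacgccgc
Rps6, chr4:86857348-86857377, minus strand: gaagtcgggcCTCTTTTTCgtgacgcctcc
Rps27, chr3:90213629-90213658, minus strand: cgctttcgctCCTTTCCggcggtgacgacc
Rpl22l1, chr3:28805498-28805527, plus strand: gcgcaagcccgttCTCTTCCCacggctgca
Rpsa, chr9:120127756-120127785, plus strand: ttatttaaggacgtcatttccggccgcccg
Rpl27, chr11:101442235-101442264, plus strand: ctgttcctgtctgctgctcgtgctgctaat

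RefSeq windows matched 64 of the 88 members. These 64 had 76 annotated starts, and a member was counted if any of its starts had the tract. The tract lay exactly at an annotated start in 14 of these 64 (21.9%) against 3.01% of 27025 genes in the promoter table. It began within 10 bases of the start in 39 members (60.9%) against 34.4% of all genes, so the wider window separates members from other genes less. Annotated starts can lie some bases from the start used in microglia, which these counts do not measure. The Rpl27 window ends before the GENCODE start of the gene at 101442298, so it may not show how that mRNA begins.

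Numbered samples held 45.1 to 76.6 M counts. Abca1 and Abcg1 were still counted in KO: naive samples held 66.1 to 105 CPM (counts scaled to a common library size with TMM factors) of Abca1 in KO and 87.4 to 114 in WT, and 91.7 to 160 CPM of Abcg1 in WT against 41.6 to 66.4 in KO. Counts over a whole gene cannot show whether its floxed part is lost, so these values do not check the deletion. All 12 microglia markers were detected in every group and summed to 56400 to 65170 CPM in naive WT samples, 33130 to 42050 in WT cisplatin saline, 46190 to 59320 in KO naive and 24520 to 29090 in KO cisplatin saline. The 8 monocyte markers summed to 3.82 to 61.7 CPM in naive WT samples and 4.16 to 20.1 in KO naive, against 238 to 1047 in WT and 762 to 1212 in KO cisplatin saline, most of it Fn1, and 1 of the 8 was at 0 throughout KO naive. Ccr2, a receptor of inflammatory monocytes, reached 95.3 and 62.8 CPM in samples 5 and 6 of the WT cisplatin saline group. It was at 10.2 CPM or less in every other sample. Other markers of the list were not limited to these samples. Chil3 was at 49.4 and 44.8 CPM in them and at 76.9 to 116 CPM in KO cisplatin saline. Fn1 was at 236 CPM in WT cisplatin saline 4, against 0.687 to 51.6 in naive WT samples. In bulk RNA, a different share of cells and a different amount of RNA per cell cannot be told apart.

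In WT, ribosomal protein mRNAs took 0.691, 0.746 and 0.648% of all counts in the naive samples 1, 2 and 3 and 1.27, 1.66 and 1.55% in cisplatin saline 4, 5 and 6. In KO they took 0.844, 0.871 and 0.870% in naive and 1.66, 1.90 and 1.77% in cisplatin saline. In each genotype every cisplatin sample lay above every naive sample, and the mean share was 2.15 times the naive mean in WT and 2.06 times in KO. WT cisplatin saline 4, in which Ccr2 was as low as in naive samples but Fn1 was not, held 1.27%. This was above the highest naive WT sample but the lowest of its group. No test is given for these sums.

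**Figure D1:**
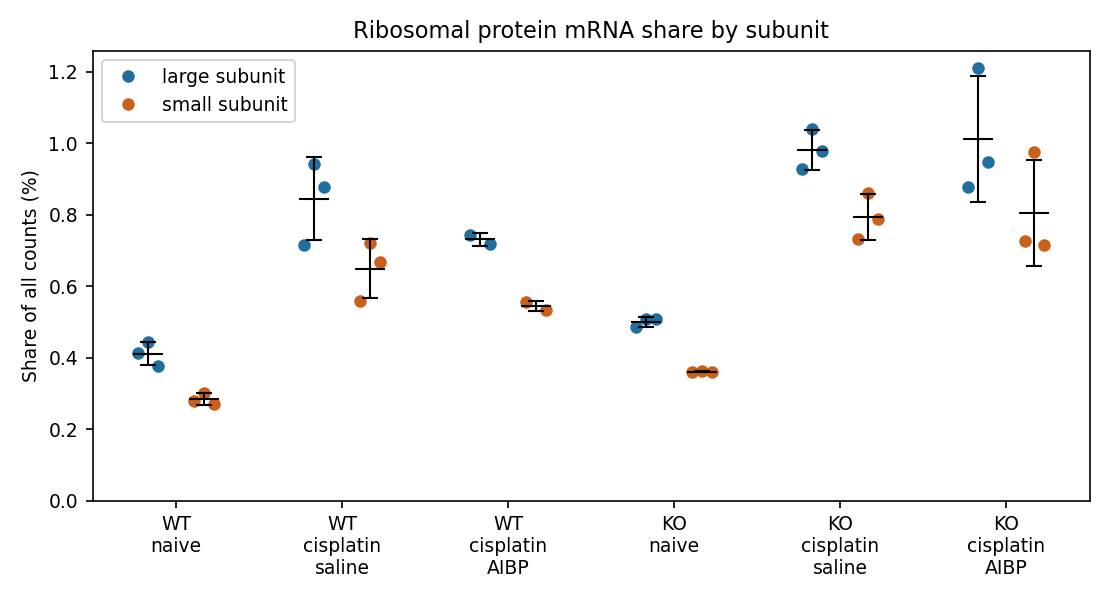
Share of all counts (%, vertical axis) held by large subunit (blue) and small subunit (orange) mRNAs in each of the 6 groups; points are numbered samples, and black bars are the mean and SD. All cisplatin samples lie above the naive samples of their genotype, and the highest point is a KO cisplatin AIBP sample whose members of both subunits took 2.19% together.

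Member by member, 62 of 88 rose in WT after cisplatin saline and none fell (edgeR quasi-likelihood test, Benjamini-Hochberg adjusted over 20461 genes tested, threshold 0.05; all 88 were tested). Among all genes tested 1.95% were called higher and 0.953% lower, and the median log2 fold change was 1.07 over members against -0.01 over all genes. In KO 59 of 88 rose and none fell, where 2.42% of all genes were called higher and 1.99% lower, with a median of 1.00 against -0.04. The same 57 members rose in both genotypes, 5 were called in WT and not in KO (Rpl23a, Rpl4, Rplp1, Rps9 and Rps20), 2 in KO and not in WT (Rpl32 and Rps23) and 24 in neither. No member passed the test of the difference between genotypes, given below. Earlier results of these data already showed ribosomal protein mRNAs higher after cisplatin, so these counts are not independent support of that direction.

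Every cisplatin saline sample lay above every naive sample for 79 of 88 members in WT, where 12% of all genes did so, and for 81 of 88 in KO, where 12% did so. Only Rpl22l1 had every WT cisplatin saline sample below every naive sample (10.7% of all genes did), and no member did so in KO (11.5% of all genes did). Across the 78 members averaging 10 CPM or more, the fold changes of WT and KO, which share no sample, had Pearson r = 0.87 and Spearman rho = 0.83. Those 78 points share libraries within a genotype and are not replicates. The median SD of log2 CPM within groups was 0.22 for these 78 members and 0.38 for 8570 genes averaging 10 CPM or more. The members and those genes were not matched for level.

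By start sequence, 10 of the 14 members with the tract at an annotated start rose in WT (median log2 fold change 1.32). So did 16 of 25 with the tract only near a start (1.07) and 20 of 25 with none within 10 bases (0.95). The KO counts were 10 of 14 (1.05), 16 of 25 (1.02) and 19 of 25 (1.00). Members without a tract in the window thus rose too, as Rpsa in the sequences above, and the difference between the sets was not tested.

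**Figure D2:**
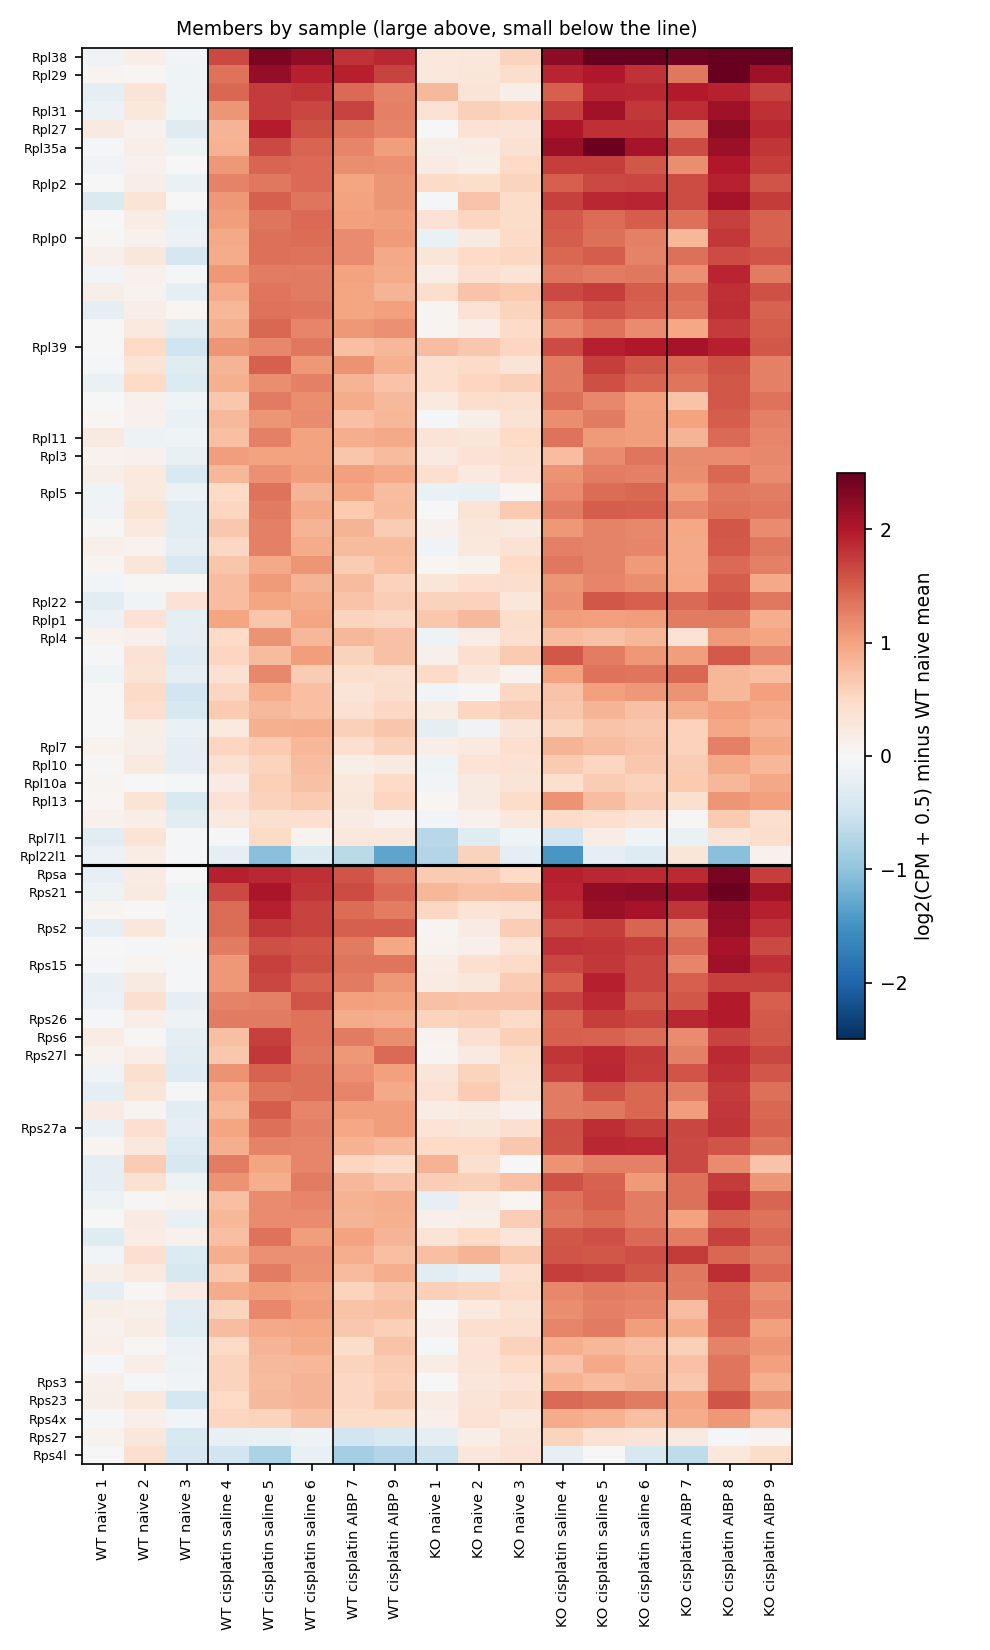
Level of the 78 members with a mean of 10 CPM or more (rows; large subunit above the black line, small below) in the 17 numbered samples (columns), as log2(CPM + 0.5) minus the mean of the 3 WT naive samples, with names only for rows described in the text. Most rows turn red in all cisplatin columns of both genotypes, while Rpl22l1, Rpl7l1, Rps27 and Rps4l, at the foot of each block, do not.

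Without WT cisplatin saline 5 and 6, leaving 1 sample in that group, which is assumed to vary like the others, 4 members were called in WT, among them Rpsa, Rpl38 and Rps21, 0.0306% of all genes were called in either direction, and the median was 0.87 with 83 of 88 members positive. Leaving out WT naive 1 left 39 calls and leaving out WT cisplatin saline 5 left 37, and the share of all genes called fell as well, from 2.91% to 1.09% and 0.735%.

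Rpl38, a large subunit protein mutated in Tail-short mice (ENSMUSG00000057322, chromosome 11, 114668524 to 114672331, GRCm38), had the largest change of the well-measured members. Its CPM were 19.8, 23.7 and 20.3 in naive WT samples, 67.1, 110 and 101 in WT cisplatin saline, 25.4, 25.9 and 31.4 in KO naive and 102, 148 and 135 in KO cisplatin saline. Naive and cisplatin samples did not overlap in either genotype. It rose by a log2 fold change of 2.12 ± 0.21 (SE; n = 3 against 3, edgeR adjusted p = 0.00034) in WT and 2.22 ± 0.21 (adjusted p = 0.000225) in KO.

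Rpl29, a basic large subunit protein (ENSMUSG00000048758, chromosome 9, 106429454 to 106431568), held 28.3, 27.6 and 24.8 CPM in naive WT samples and 69.9, 125 and 104 after cisplatin saline. The KO samples held 32.1, 33.2 and 36.7 CPM when naive and 102, 109 and 95.4 after cisplatin saline. Again no samples overlapped, and its log2 fold change was 1.89 ± 0.26 in WT (edgeR adjusted p = 0.00246) and 1.59 ± 0.26 in KO (adjusted p = 0.00353). Rpsa, the small subunit protein also known as the laminin receptor precursor (ENSMUSG00000032518, chromosome 9, 120127689 to 120132369), held 58.8, 79.1 and 68.2 CPM in naive WT samples and 265, 253 and 243 after cisplatin saline. Its KO naive samples held 108, 106 and 96.6 CPM, above all WT naive samples, while its KO cisplatin saline samples held 262, 255 and 251, in the WT range. Rpsa rose by 1.89 ± 0.17 in WT (edgeR adjusted p = 0.00034) and 1.30 ± 0.17 in KO (adjusted p = 0.00106), and the interaction of genotype and cisplatin was -0.58 (edgeR adjusted p = 0.615).

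Rpl35a, a large subunit protein mutated in some patients with Diamond-Blackfan anaemia (ENSMUSG00000060636, chromosome 16, 33056453 to 33060189), had the larger value in KO. It held 38.9, 44.7 and 36.1 CPM in naive WT samples, 73.2, 125 and 110 in WT cisplatin saline, 44.2, 45.4 and 51.7 in KO naive and 178, 221 and 167 in KO cisplatin saline. Every KO cisplatin saline sample was above every WT one. Its log2 fold change was 1.37 ± 0.21 in WT (edgeR adjusted p = 0.00387) and 2.00 ± 0.21 in KO (adjusted p = 0.000316), with an interaction of 0.64 (edgeR adjusted p = 0.644), which does not pass. Rpl27, another large subunit protein of the same anaemia (ENSMUSG00000063316, chromosome 11, 101442298 to 101445529), held 28.8, 26.9 and 19.6 CPM in naive WT samples and 45.3, 98.0 and 75.7 after cisplatin saline (1.54 ± 0.29, edgeR adjusted p = 0.0106). The KO samples held 24.9, 31.8 and 31.2 CPM when naive and 102, 89.4 and 88.8 after cisplatin saline, again with no overlap (1.67 ± 0.29, edgeR adjusted p = 0.00443).

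Rpl23a, a protein at the rim of the exit tunnel (ENSMUSG00000058546, chromosome 11, 78180932 to 78183584), also ranked high but was thinly covered, with 3686 counts over all samples. Of its 50-base words, 85.7% also occurred in transcripts of other genes, so its values as a single gene are uncertain. Rpl23a held 0.768, 1.19 and 0.764 CPM in naive WT samples, 2.29, 4.73 and 4.17 in WT cisplatin saline, 1.55, 1.19 and 1.22 in KO naive and 3.57, 5.51 and 5.27 in KO cisplatin saline. Groups did not overlap, yet its adjusted p lay at the threshold, 0.0454 in WT and 0.052 in KO (edgeR, log2 fold change 2.03 ± 0.51 and 1.86 ± 0.51). Rpl3l, a large subunit protein known from heart and skeletal muscle, had 214 counts in all: it was at 0 in all 3 WT naive samples and in 2 of 3 WT cisplatin saline samples, and at 0.572 CPM in the other. In KO naive it stood at 1.15, 0.334 and 0 CPM and in KO cisplatin saline at 0 throughout. No fold is given for Rpl3l, since a few samples carry all its counts and neither fitted value passed the test (edgeR adjusted p = 0.354 in WT and 0.276 in KO).

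**Figure D3:**
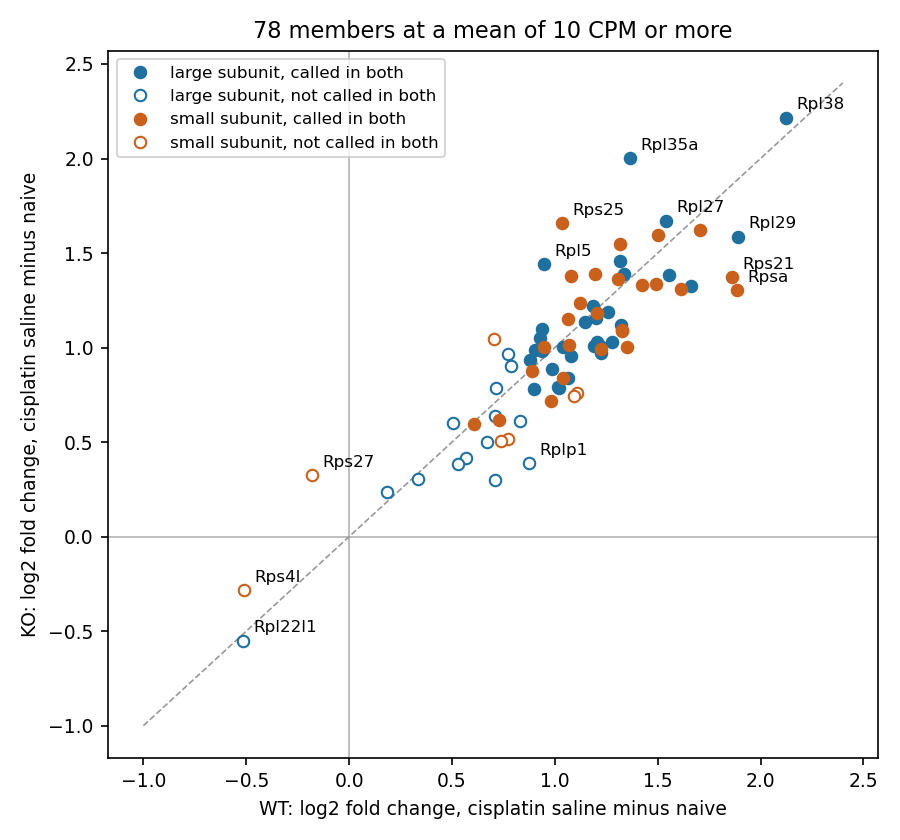
Log2 fold change of cisplatin saline minus naive in WT (horizontal) against KO (vertical) for the 78 members with a mean of 10 CPM or more; blue is large and orange small subunit, filled points passed the test in both genotypes, and the dashed line marks equal change. Points follow the dashed line from Rpl22l1 and Rps4l at the lower left to Rpl38 at the upper right.

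At the P stalk, the large subunit arm that recruits elongation factors, all 4 members rose in WT and 3 of 4 in KO. Rplp0, its base, was the most abundant large subunit mRNA by total count and went from 430 ± 36 to 1027 ± 169 CPM in WT and from 494 ± 110 to 1124 ± 94 in KO (mean ± SD, n = 3 each; edgeR adjusted p = 0.00772 and 0.00669). Rplp2 rose by 1.32 ± 0.14 in WT (edgeR adjusted p = 0.000604) and 1.12 ± 0.14 in KO (adjusted p = 0.000773). Its partner Rplp1 rose in WT only by the test, from 117, 167 and 110 CPM to 256, 209 and 256; the KO samples held 207, 227 and 174 CPM when naive and 266, 263 and 266 after cisplatin saline (0.39 ± 0.18, edgeR adjusted p = 0.26). Naive KO samples were thus already above naive WT samples for Rplp1.

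Rpl5 and Rpl11, which carry 5S ribosomal RNA into the large subunit and bind MDM2 when assembly fails, rose in both genotypes. Rpl5 changed by 0.95 ± 0.20 in WT and 1.44 ± 0.20 in KO, and Rpl11 by 1.02 ± 0.19 and 0.79 ± 0.19 (edgeR adjusted p 0.00142 to 0.0262 for the 4 values). Along the tunnel through which the new protein leaves the large subunit, 7 of 8 members rose in WT and 5 of 8 in KO. Rpl31 rose by 1.55 ± 0.22 in WT and 1.39 ± 0.22 in KO, and Rpl39, the small protein that lines the tunnel, by 1.19 ± 0.26 and 1.22 ± 0.26. Rpl3 (1.01 ± 0.15 in WT) and Rpl8 (1.22 ± 0.17), which reach towards the peptidyl transferase centre where amino acids are joined, passed in both genotypes, while Rpl10, also near that centre, was at 0.57 ± 0.16 in WT (edgeR adjusted p = 0.0844). Rpl10a, the protein of the L1 stalk, was at 0.53 ± 0.17 in WT (edgeR adjusted p = 0.115). Differences between such groups were not tested.

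In the small subunit, the 3 proteins around the mRNA entry channel all rose in WT and 2 of 3 did in KO. Rps2 went from 231 ± 41 to 707 ± 92 CPM in WT (log2 fold change 1.62 ± 0.22, edgeR adjusted p = 0.00211) and Rps3, the most abundant small subunit mRNA by total count, from 382 ± 32 to 633 ± 67 (0.73 ± 0.16, adjusted p = 0.0265). Around the mRNA exit, 5 of 6 rose in each genotype, among them Rps26, which contacts mRNA just upstream of the start codon (1.33 ± 0.16 and 1.09 ± 0.15). The sixth was Rps27, described with its paralog below. In the head of the small subunit 7 of 8 rose in WT and 6 of 8 in KO, with Rps15 at 1.49 ± 0.21 and 1.34 ± 0.21.

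Rps6, the protein that S6 kinase phosphorylates downstream of mTOR, held 49.8, 44.9 and 37.5 CPM in naive WT samples and 73.9, 144 and 113 in WT cisplatin saline (1.33 ± 0.23, edgeR adjusted p = 0.00768). In KO its means were 56.9 ± 9.7 and 121 ± 5.0 CPM (1.09 ± 0.23, edgeR adjusted p = 0.0137). Rps27a, made as a fusion with ubiquitin, rose by 1.19 ± 0.18 in WT and 1.39 ± 0.18 in KO. Rps23, at the decoding centre, passed in KO (1.05 ± 0.20, edgeR adjusted p = 0.00831) and not in WT (0.71 ± 0.20, adjusted p = 0.0755). Of 17 members mutated in Diamond-Blackfan anaemia, 13 rose in each genotype, with medians of 1.04 in WT and 0.99 in KO, close to those of all members.

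Set against each other, both subunits took a larger share of counts after cisplatin saline, and the small subunit grew by the larger factor. Large subunit mRNAs went from 0.412, 0.444 and 0.378% of counts in WT naive to 0.716, 0.943 and 0.877% in cisplatin saline, and small subunit mRNAs from 0.279, 0.302 and 0.269% to 0.559, 0.721 and 0.668%. Mean shares were 2.06 times the naive mean for the large and 2.29 times for the small subunit in WT, and 1.96 and 2.20 times in KO. By call, 34 of 53 large and 28 of 35 small subunit members rose in WT, and 32 of 53 and 27 of 35 in KO. Median log2 fold changes were 1.02 for large and 1.11 for small in WT, and 0.97 and 1.05 in KO.

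The log2 ratio of summed large to summed small subunit counts was lower in every cisplatin saline sample than in every naive sample of the same genotype. It was 0.56, 0.55 and 0.49 in naive WT samples, 0.36, 0.39 and 0.39 in WT cisplatin saline, 0.43, 0.49 and 0.50 in KO naive and 0.34, 0.27 and 0.31 in KO cisplatin saline. WT cisplatin AIBP stood at 0.42 and 0.42, between naive and saline, and KO cisplatin AIBP at 0.27, 0.31 and 0.41, across the KO saline range. The group mean changed by -0.16 in WT and -0.17 in KO with saline. This ratio is a description of summed counts, with no test.

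**Figure D4:**
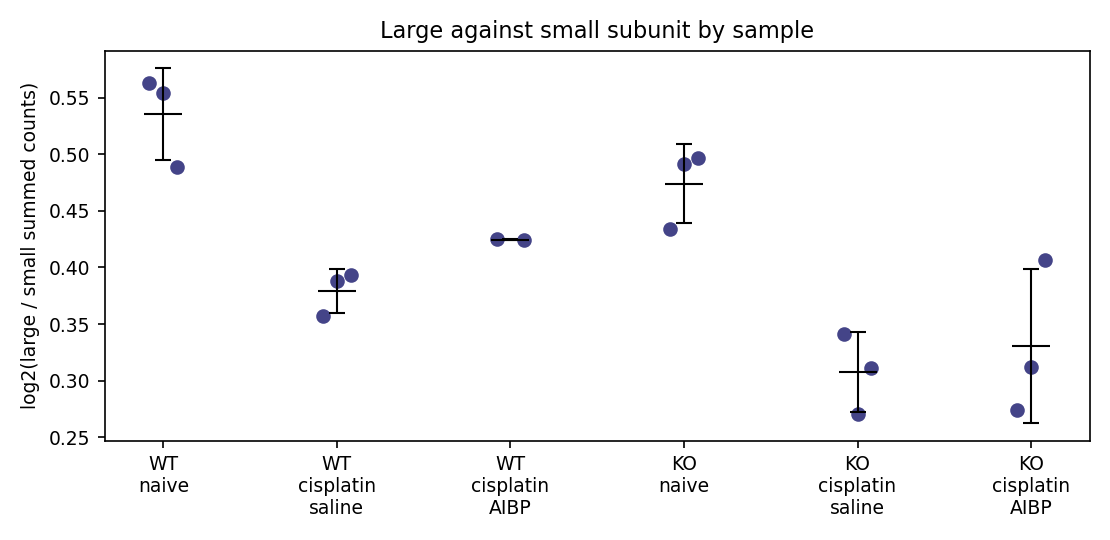
Log2 ratio of summed large to summed small subunit counts (vertical axis, not starting at 0) for each numbered sample by group; bars are the mean and SD. Naive samples lie at 0.43 to 0.56 and cisplatin saline samples at 0.27 to 0.39.

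The sums rest on a few abundant members. The 5 with most counts made up 37.4% of large subunit counts, led by Rplp0 and Rpl4, and 39.8% of small subunit counts, led by Rps3 and Rps2. Among these, Rpl13 (0.51 ± 0.22 in WT and 0.60 ± 0.22 in KO) and Rpl10 did not pass in either genotype, whereas Rplp0, Rps2, Rps3 and Rps14 passed in both. Without Rplp0 and Rps3, the ratio went from 0.58 to 0.34 in WT and from 0.51 to 0.26 in KO. The ratio was thus lower after cisplatin without the top member of each subunit too, and by more than with all members. In both genotypes Rplp0 rose by more than the large subunit median and Rps3 by less than the small subunit median. Leaving both out therefore widens the difference by arithmetic, which is not separate support.

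Levels between genes can be compared only per length. By WT naive CPM per kilobase of median GENCODE transcript length, Rps27 (490) and Rps3 (401) were near the top of the 78 members averaging 10 CPM or more. In WT cisplatin saline they stood at 432 and 665 on the same scale, and Rplp0 went from 316 to 756. The lowest value was that of Rps15a, at 5.33 in naive WT samples, whose median annotated transcript is 5130 bases long, so that its place depends on the isoforms annotated.

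Several members have a paralog, a second gene of related sequence, and of 15 genes of such pairs tested 6 rose in each genotype. Rps27, a zinc finger protein of the small subunit, held 177, 202 and 128 CPM in naive WT samples and 145, 149 and 153 after cisplatin saline (-0.18 ± 0.18, edgeR adjusted p = 0.63). Its paralog Rps27l, a known p53 target, held 47.8, 50.4 and 37 CPM in naive samples and 72.0, 153 and 112 after cisplatin saline, and rose by 1.32 ± 0.25 (edgeR adjusted p = 0.0115). In KO, Rps27 was at 142, 183 and 208 CPM in naive and 244, 214 and 208 in cisplatin saline (0.32 ± 0.18, edgeR adjusted p = 0.345), and Rps27l rose from 46.7, 52.6 and 61.8 to 156, 164 and 151 (1.55 ± 0.25, adjusted p = 0.00315). Rps27 samples overlapped in WT and lay side by side at 208 CPM in KO, while Rps27l samples did not overlap in either genotype; the difference between the paralogs was not tested. With the transcript length trend removed, Rps27 was called lower in WT, and it was the only member called lower there.

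Rpl22, which also binds RNA outside the ribosome, rose from 21.8, 25.2 and 34.4 CPM to 45.9, 53.2 and 50.9 in WT and from 39.9, 40.2 and 32.5 to 59.8, 79.2 and 76.2 in KO (0.88 ± 0.19 and 0.93 ± 0.19, edgeR adjusted p = 0.0263 and 0.0135). Its paralog Rpl22l1 held 26.2, 33 and 27.8 CPM in naive WT samples and 24.7, 13.8 and 22.5 after cisplatin saline. In KO it was at 17.2, 43 and 24.4 and at 10.2, 24.6 and 22.9 CPM. Rpl22l1 samples were lower without overlap in WT and overlapped in KO, and it did not pass the test (-0.51 ± 0.43, edgeR adjusted p = 0.566 in WT; -0.55 ± 0.43, adjusted p = 0.543 in KO). Rps4x, the X-linked gene for a small subunit protein, rose by 0.61 ± 0.13 in WT and 0.60 ± 0.13 in KO. Rps4l, annotated as a transcribed processed pseudogene, held 59.8, 80.1 and 44.7 CPM in naive WT samples and 42.7, 34.2 and 52.6 after cisplatin saline, and 40.9, 73.3 and 76.5 CPM, then 52.2, 59.1 and 45.5, in KO. Its samples overlapped in both genotypes and it did not pass (-0.51 ± 0.31 in WT and -0.28 ± 0.31 in KO, edgeR adjusted p = 0.398 and 0.687). Rpl7, a large subunit protein, was at 0.67 in WT (edgeR adjusted p = 0.0508) and 0.50 in KO (adjusted p = 0.126). Its relative Rpl7l1 averaged 110 ± 24 and 125 ± 25 CPM in WT (0.19 ± 0.24, edgeR adjusted p = 0.736).

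**Figure D5:**
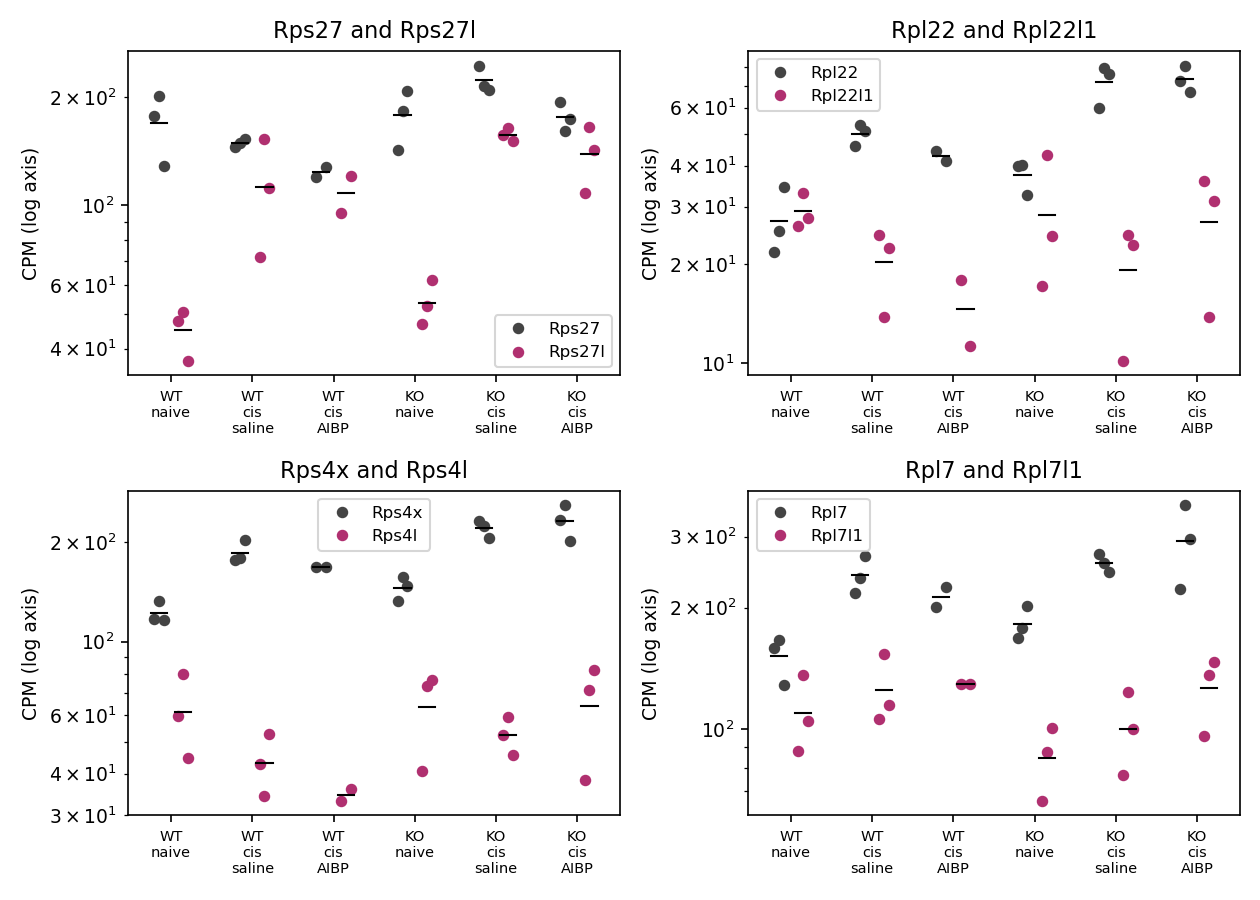
CPM on a log axis for the paralog pairs Rps27 and Rps27l, Rpl22 and Rpl22l1, Rps4x and Rps4l, and Rpl7 and Rpl7l1 in the 6 groups (cis stands for cisplatin); points are numbered samples and short lines are group means. Rps27l and Rpl22 are higher in all cisplatin samples than in the naive samples of their genotype, whereas Rps27, Rpl22l1, Rps4l and Rpl7l1 show no such step.

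Ribosomal protein genes have many processed copies, so reads can be shared. Of 83 members with GENCODE transcripts compared, 32 shared at least 50% of their 50-base words with transcripts of other genes and 9 shared under 10%; Rpl5 shared 93.8%, Rpl38 27.4% and Rps3 2.83%. How such reads were counted was not given in the sources used here, so members with much sharing are uncertain as single genes. In WT, 6 of the 9 members with little sharing rose (median 1.10), as did 20 of the 32 with much sharing (median 1.02). Across members at 10 CPM or more the fold change had Pearson r = -0.08 with the shared percentage in WT and 0.00 in KO, over 77 members. Rows for 299 pseudogenes named after members held 1.69 to 2.27% as many counts as the members in every sample, naive or treated. Pseudogenes under other names were left out of these rows, among them Gm15500, the gene that shared most words with Rpl5. The counts on all processed copies were therefore not measured.

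Short transcripts in general were higher after cisplatin. Among genes that are not members and averaged 10 CPM or more, the 129 with transcripts under 600 bases had a median log2 fold change of 0.50 in WT and 0.72 in KO, and the 2071 of 4000 bases or more had -0.25 and -0.19. Members of any length moved by more: medians were 1.14 for the 24 members under 600 bases, 0.95 for the 45 from 600 to under 1000 bases and 1.10 for the 19 of 1000 bases or more in WT. With the trend on length removed in each sample, 48 members were called higher and 1 lower in WT (2.78% of all genes were called) and 48 higher and 0 lower in KO (4.67%), with medians of 0.79 and 0.70. RNA quality was not given in the labels used here.

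AIBP after cisplatin changed no member by the test. In WT, cisplatin AIBP samples 7 and 9 held 1.30 and 1.25% ribosomal protein counts against 1.27, 1.66 and 1.55% with saline. Log2 fold changes were negative for 85 of 88 members, with a median of -0.22 against -0.03 over all genes, and 30 members had both AIBP samples below all 3 saline samples, where 9.14% of all genes did so. None was called by edgeR (0% of all genes were) or by DESeq2 (0.352% of all genes with a count). The saline group here includes the samples with high Ccr2, at 95.3 and 62.8 CPM against 6.41 and 10.2 with AIBP; the third saline sample, with Ccr2 at 0.324 CPM, held 1.27%, between the AIBP samples. The part of monocyte RNA in this difference was not tested.

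In KO, AIBP samples 7, 8 and 9 held 1.60, 2.19 and 1.66% against 1.66, 1.90 and 1.77% with saline. Groups overlapped, 55 of 88 members were positive and the median was 0.04. Without KO cisplatin AIBP 8, 23 of 88 were positive and the median was -0.10. With all samples, no member was called by edgeR (0.00977% of all genes were) or by DESeq2 (0.617% of all genes with a count). The interaction of genotype and AIBP also called 0 members with edgeR (0% of all genes) and 0 with DESeq2 (0.434% of all genes with a count). Its values were positive for 82 of 88 members, with a median of 0.26, and the median was 0.17 without WT cisplatin saline 5 and 0.13 without KO cisplatin AIBP 8.

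Against naive, cisplatin AIBP samples kept the higher level, with the same naive samples as above serving as reference. In WT 36 of 88 members were higher and none lower (1.06% and 0.191% of all genes were), with a median of 0.81, and the large and small subunits gave 18 of 53 and 18 of 35. In KO 63 of 88 were higher and none lower (1.81% and 0.87% of all genes were), with a median of 0.98. Every AIBP sample lay above every naive sample for 72 of 88 members in WT, where 17% of all genes did so, and for 75 of 88 in KO, where 10.1% did so. Rpl38 stood at 75.2 and 80.0 CPM in WT cisplatin AIBP and 117, 147 and 122 in KO cisplatin AIBP, all above the naive samples. The WT count with 2 samples was not stable: leaving out WT naive 1, 2 or 3 left 8, 20 or 13 calls, and leaving out WT cisplatin AIBP 7 or 9 left 0 or 6, each time with none lower. The share of all genes called in these fits was 0.211, 0.334, 0.681, 0.00436 and 0.086%, against 1.25% with every sample. In KO, leaving out naive 1, naive 2 or AIBP 8 left 34, 36 or 32, with 1.01, 0.827 and 0.699% of all genes called against 2.68%.

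Between genotypes no member passed the test at any stage. In naive mice KO samples held 0.844 to 0.871% ribosomal protein counts against 0.648 to 0.746% in WT, with no overlap. The median log2 fold change of KO against WT was 0.33 (0.00 over all genes), 83 of 88 members were positive, and 34 had every KO sample above every WT sample, where 5.49% of all genes did so. edgeR called none (0.00489% of all genes were called), and DESeq2 called 8 (0.609% of all genes with a count): Rpl37a, Rplp1, Rplp2, Rps15a, Rps21, Rps24, Rps26 and Rps29. Rps21, a small subunit protein of the body, gave the smallest edgeR p: 13.1, 16.9 and 13.4 CPM in naive WT samples and 26.1, 24.3 and 24.5 in KO naive (0.79, adjusted p = 0.577). Single libraries, several of which were made from each sample, spread more widely, from 0.662 to 1.21% within KO naive 2 alone.

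After cisplatin saline the KO samples held 1.66 to 1.90% against 1.27 to 1.66% in WT, ranges that overlapped at their ends. WT cisplatin saline 4, with Ccr2 at 0.324 CPM, was the lowest of the 6. Ccr2 was also low in the KO samples, at 0.227 to 6.75 CPM. The median was 0.26 with 79 of 88 members positive, and 29 had every KO sample higher (6.1% of all genes did). Without WT cisplatin saline 4 the median was 0.14 with 70 of 88 positive. With all samples, edgeR called 0 members (0.044% of all genes). DESeq2 called 3 (Rpl35a, Rps27 and Rps28), where it called 1.36% of all genes with a count. After cisplatin AIBP the KO samples held 1.60 to 2.19% against 1.25 and 1.30% in WT. There the median was 0.52, 87 of 88 members were positive and 61 had every KO sample above both WT samples (10.8% of all genes did). edgeR called 0 (0% of all genes). DESeq2 called 11, among them Rps26 and Rps24, where it called 0.683% of all genes with a count. In these groups the microglia markers summed to 29720 to 39250 CPM in KO and 46150 to 48410 in WT, and the monocyte markers to 270 to 787 and 185 to 272. Without KO cisplatin AIBP 8, which held 787 CPM of monocyte and 39.2 CPM of border macrophage markers, the median was 0.40 with 84 of 88 members positive. The part of these cells in the difference was not tested. The interaction of genotype and cisplatin saline called 0 members in edgeR (0% of all genes) and 0 in DESeq2 (0.606% of all genes with a count), with a median of -0.09.

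Other genes of the translation machinery were counted in the same comparison of cisplatin saline with naive. Of 3 ribosomal protein or ribosome-bound genes outside the naming rule, Rack1, a scaffold on the small subunit, rose from 186 to 649 CPM in WT and 238 to 753 in KO (edgeR adjusted p = 0.000604 and 0.000549), while Fau, fused to a ubiquitin-like sequence, stood at 0.45 in WT and did not pass. Of 20 other TOP mRNAs, Npm1 of the list below among them, 7 rose in WT and 9 in KO and none fell, with medians of 0.70 and 0.75. They included the elongation factor subunits Eef1g (1.90 in WT and 1.53 in KO) and Eef1b2 (1.23 and 0.93) and the RNA-binding protein gene Hnrnpa1 (1.34 and 0.91). Nap1l1, a histone chaperone gene, rose in WT (1.77, edgeR adjusted p = 0.00134) and was at 0.68 in KO (adjusted p = 0.106).

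Of 31 ribosome biogenesis genes, 3 rose in WT (Npm1, Nop10 and Nhp2) and 5 in KO (these and Ncl and Ltv1), and none fell, with medians of 0.80 and 0.68. Ncl, which encodes nucleolin, was at 0.93 in WT (edgeR adjusted p = 0.0528) and 1.5 in KO (adjusted p = 0.00337). Of 7 chaperones and importers of ribosomal proteins tested, Ipo7 and Ipo5 rose in WT (1.31 and 1.28) and none passed in KO. Among 18 regulators of ribosomal protein transcription and TOP translation, Mtor rose in WT (1.09, edgeR adjusted p = 0.0443), was at 0.22 in KO (adjusted p = 0.728), and no other passed in either genotype. The list median was -0.14 in WT and 0.01 in KO. None of 5 genes of the MDM2 checkpoint and none of 11 ribosome quality control genes passed in either genotype; Cdkn1a, the p53 target p21, was at 1.35 in WT (edgeR adjusted p = 0.0665) and -0.04 in KO (adjusted p = 0.983). Of 77 mitochondrial ribosomal protein genes tested, 4 rose in WT and 18 in KO and none fell, with medians of 0.49 and 0.52.

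Cell state markers differed between the same groups. The 14 proliferation genes summed to 260 to 502 CPM in naive WT samples and 1258 to 1740 in WT cisplatin saline, and to 311 to 417 and 493 to 967 in KO. The 12 immediate early and dissociation genes summed to 19100 to 47310 CPM in naive WT samples and 8973 to 27510 in WT cisplatin saline, and to 7169 to 35290 and 3127 to 12670 in KO, with overlapping ranges. Lists for neutrophils and border macrophages stayed at or under 69.5 CPM in every sample and were highest in WT cisplatin saline 5. The 5 astrocyte markers summed to 166 to 213 CPM in naive WT samples and 78.1 to 136 after cisplatin saline, and to 194 to 262 and 100 to 143 in KO. The 5 endothelial markers summed to 22.6 to 35.7 CPM and 8.15 to 11.1 in WT, and to 16 to 42 and 0.666 to 10.6 in KO. Astrocyte and endothelial sums were thus lower without overlap in both genotypes. The 6 oligodendrocyte markers overlapped in WT (422 to 755 and 171 to 430 CPM) and were lower without overlap in KO (309 to 656 and 139 to 242). Mitochondrial transcripts took 1.61 to 2.10% of counts in naive WT samples and 2.18 to 2.57% in WT cisplatin saline. The part of these states and cell types in the ribosomal protein rise was not tested.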

How the data were processed

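Microglia were sorted from lumbar spinal cord into lysis buffer, and oligo(dT)-primed, PCR-amplified Nextera XT libraries were sequenced as read pairs, per the labels' protocols. Per the submitters' processing notes, STAR 2.6.0a and DESeq2 were used with GRCm38; which counting tool and strand setting were used is not given in the sources used here. Deposited by the authors were raw counts of 53715 genes in 102 runs and, as signal, a normalized table of 18856 genes that equals raw counts divided by 1 size factor per run. The 6 runs of each of 17 numbered samples were summed (45.1 to 76.6 M counts). Tests used edgeR 4.0.16 (R 4.3.3) on raw counts: TMM, filterByExpr by group, a group means model over all 17 samples with 11 residual degrees of freedom, two-sided quasi-likelihood tests of 11 contrasts and Benjamini-Hochberg adjustment within each over 20461 genes. Scripts were tested on simulated data. DESeq2 1.42.0 was an alternative. Members and gene lists were chosen with earlier results of these data known. Named members were the 4 largest and 2 smallest log2 fold changes of cisplatin saline minus naive in each genotype and examples of structural role lists; other lists name up to 4 genes by smallest p in WT, and Ncl, Ltv1 and the members named for their DESeq2 calls, calls in 1 genotype or without 2 samples, or abundance were chosen after their values were seen. CPM uses TMM-scaled library sizes. Replicate numbers did not pair the samples: no treatment label ties them, and same-numbered samples of WT and KO had correlations of deviations from -0.137 to 0.145. Shares and the subunit ratio are sums of counts. Values of some single genes are not reported here.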

Additional observations from a re-analysis of the deposited data

How the results depend on the processing

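After cisplatin saline no member was called lower in WT under any alternative but the length trend, and the count called in WT was 17 from the 2 groups alone (0.443% of all genes), 4 without WT cisplatin saline 5 and 6, and 37 to 67 with each replicate left out. With libraries as units and the technical replicate as a block, which counts libraries of 1 sample as independent, members called numbered 69 for WT cisplatin AIBP against naive, 3, 6 and 14 between genotypes in naive, cisplatin saline and cisplatin AIBP samples, and 1 for the interaction with cisplatin saline; the shares of all genes called there were 9.78, 0.26, 2.95, 0.816 and 0.962%. DESeq2 gave 61 for WT cisplatin AIBP against naive (4.38% of all genes with a count) and 8, 3 and 11 between genotypes. Leaving out each replicate gave 0 to 20 for WT cisplatin AIBP against naive and 32 to 65 for KO after the same treatment; fewer samples entered each of these fits, and other causes were not tested. A block by sample number, which does not pair these samples, called 0 members between genotypes and in both interactions. The log2 large to small subunit ratio without Rplp0 and Rps3 was 0.58, 0.34 and 0.39 in WT naive, cisplatin saline and cisplatin AIBP and 0.51 and 0.26 in KO naive and cisplatin saline, and it was 0.42 to 0.43 in WT cisplatin AIBP without each technical replicate. The KO naive share over TMM-scaled library sizes was 0.893%. Of the alternatives for single named genes, 479 kept direction and side of the threshold, 88 lost it, 6 gained it and none changed sign. Members under 10 CPM and members sharing most of their sequence are the least certain as single genes.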
